A study of Homo sapiens with 8 samples.

Results

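The comparison described here is between HL-60 cells given RG3039 and HL-60 cells given the solvent DMSO. It covers every gene with a mean normalised value of at least 10 over the 8 libraries of the series, 17534 of the 60240 genes in the table, in 4 of the 8 libraries. The RG3039 group had RG3039 at 2 µM, added once on day 0, and the DMSO group had solvent only. The other 4 libraries served as a second comparison of cells with and without RG3039. There the combination group had RG3039 in the same way and received 3 daily additions of decitabine at 100 nM, the last on day 2, and the decitabine group had the same decitabine alone. All cells were labelled wild type, RNA was taken at 72 h, and each group had 2 libraries. Wells were seeded in duplicate, so p-values measure the spread between these samples, which may be technical. All results come from a single cell line.

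HL-60 is a human promyelocytic leukaemia line, a cell at an early step of the myeloid lineage that several chemicals can drive towards granulocyte or monocyte traits. RG3039 is a quinazoline compound that inhibits DcpS, the scavenger enzyme that hydrolyses the cap structure left when an mRNA has been degraded from its 3′ end. Decitabine is a cytidine analogue that traps DNA methyltransferases on DNA.

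Libraries were of polyadenylated RNA, read by a 3′ tag method, so a value counts tags near transcript ends and levels are not compared between genes. By the value of a single read, depth came to about 22000000 and 37100000 reads for the RG3039 libraries and 40100000 and 21400000 reads for the DMSO libraries. A single read was worth 1.34 and 0.796 normalised units with RG3039, against 0.757 and 1.51 with DMSO. Cytosolic ribosomal protein genes took 17.4% and 17.8% of the signal with RG3039, against 20.1% and 19.4% with DMSO. The labelled cell type was checked on 14 defining markers, all of which were tested. MPO, the myeloperoxidase of promyelocytes, had 80167 and 92757 with RG3039, against 130999 and 165580.0 with DMSO. ELANE, neutrophil elastase, had 13333 and 15095 with RG3039, against 12161 and 13520.3 with DMSO. Both genes were abundant in all 4 libraries.

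In the fold changes below, which are RG3039 over DMSO on the scale of log2(value + 1) with the standard error of the model, the change of low genes is understated. A gene was called at an adjusted p under 0.05 from limma over all 17534 genes. By that rule 1424 genes were called, 8.12% of those tested. Of these, 794 were higher with RG3039 (4.53% of tested genes) and 630 were lower (3.59%). The counts of each list and class below are to be read against these shares. The median size of the change was 1.46 for genes called higher and 1.18 for genes called lower, and 227 and 117 of them changed at least 4-fold. In all, 990 called genes changed at least 2-fold (5.65% of tested genes). RG3039 and DMSO libraries did not overlap in 9095 of the tested genes (51.9%). They were separate in every called gene, so separate groups add nothing to a call. Calls were rarest among scarce transcripts, as the plot of fold change against mean value shows. Of the 4384 genes with the lowest mean value 1.82% were called, against 11.3% of the 4384 genes with the highest. The number called was 556 without RG3039 replicate 1, 496 without RG3039 replicate 2 and 637 without DMSO replicate 2. It was 1177 without DMSO replicate 1 and 993 to 1263 without a library of the other 2 groups. Of the 1424 genes, 340 stayed called whichever of the 8 libraries was left out, 211 higher and 129 lower. The genes given below with full values are among these 340 unless a lost call is stated.

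**Figure D1:**
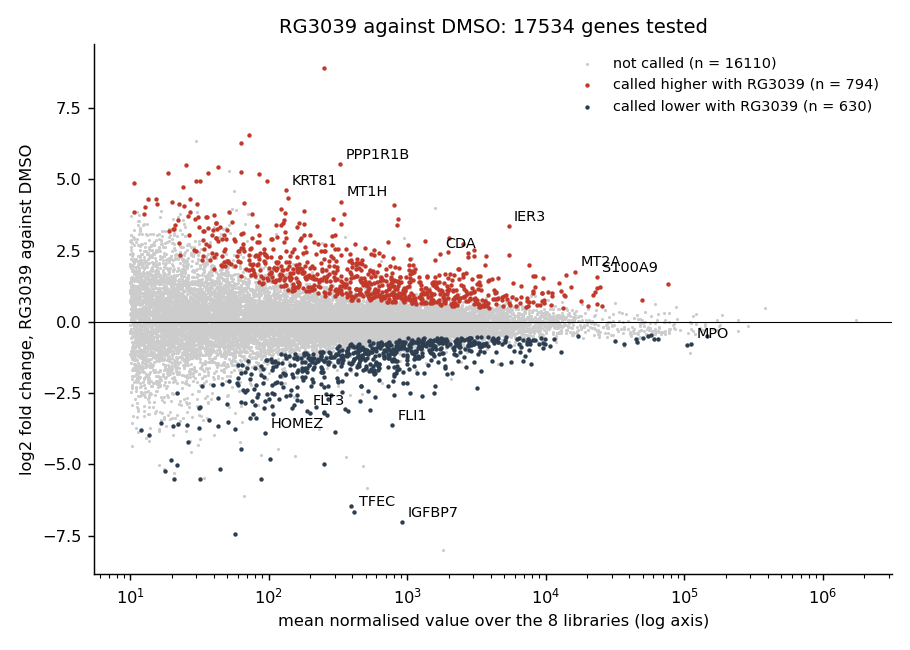
Log2 fold change of RG3039 against DMSO (vertical axis) plotted against the mean normalised value over the 8 libraries (horizontal log axis), 1 point per tested gene. The 794 genes called higher are red, the 630 called lower are dark blue and the other 16110 are grey.

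IGFBP7, which encodes a secreted insulin-like growth factor binding protein (ENSG00000163453.11, chromosome 4, 57030773 to 57110385 on GRCh38), was the called gene with the smallest adjusted p. Its normalised value was 15.3 and 19.4 with RG3039, against 2063 and 2788 with DMSO (-7.04 ± 0.34, adjusted p = 5.28e-05). TFEC encodes a MiT family transcription factor and had 4.81 and 18.8 with RG3039, against 858 and 1367 with DMSO (-6.66 ± 0.55, adjusted p = 0.000406). Both genes were present in every DMSO library and low but detected in each RG3039 library, and the groups lay far apart.

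The homeobox gene HOMEZ (ENSG00000215271.9, chromosome 14, 23272422 to 23299447) had 9.80 and 11.6 with RG3039, against 191 and 161 with DMSO (-3.92 ± 0.41, adjusted p = 0.000883). The zinc finger gene ZMAT1 (ENSG00000166432.15, chromosome X, 101882288 to 101932031) had 6.78 and 4.02 with RG3039, against 182 and 167 with DMSO (-4.81 ± 0.49, adjusted p = 0.000819). HOMEZ and ZMAT1 were thus more than 10 times as high in each DMSO library as in either RG3039 library.

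In the other direction, PPP1R1B, the gene of the phosphatase inhibitor DARPP-32, had 233 and 210.0 with RG3039, against 2.28 and 6.06 with DMSO (5.53 ± 0.40, adjusted p = 0.000281). TDRD9, an RNA helicase gene of the germline piRNA pathway, had 100.3 and 88.5 with RG3039, against 2.14 and 1.22 with DMSO (5.17 ± 0.51, adjusted p = 0.000743). GAA, the lysosomal acid α-glucosidase gene (ENSG00000171298.13, chromosome 17, 80101556 to 80119879), had 218 and 193 with RG3039, against 14.7 and 23.9 with DMSO (3.38 ± 0.38, adjusted p = 0.00119). For each of these the lowest RG3039 library was far above the highest DMSO library.

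Several genes among the 15 largest positive changes stood at the level of 0 or 1 read in DMSO. Their fitted fold changes depend on the pseudocount and are no bound. The small heat shock gene HSPB6 had 55.1 and 109 with RG3039, against 0.757 and 1.51 with DMSO. CCL22, a chemokine of macrophages and dendritic cells, had 30.9 and 51.7 with RG3039, against 0.757 and 0 with DMSO. MYL9, a regulatory myosin light chain gene, had 26.9 and 24.7 with RG3039, against 0.757 and 0 with DMSO. All 3 were called (adjusted p = 0.00314, 0.00361 and 0.00178). VARS2, the mitochondrial valyl-tRNA synthetase gene, was listed with values of 398 and 570.4 under RG3039 and with 0 in either DMSO library. Its call ended at adjusted p = 0.0575 without RG3039 replicate 2. In all, 13 genes called higher were listed at 0 in both DMSO libraries and 5 genes called lower were listed at 0 in both RG3039 libraries. A listed 0 can also be a failed estimate rather than an absence of reads.

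**Figure D2:**
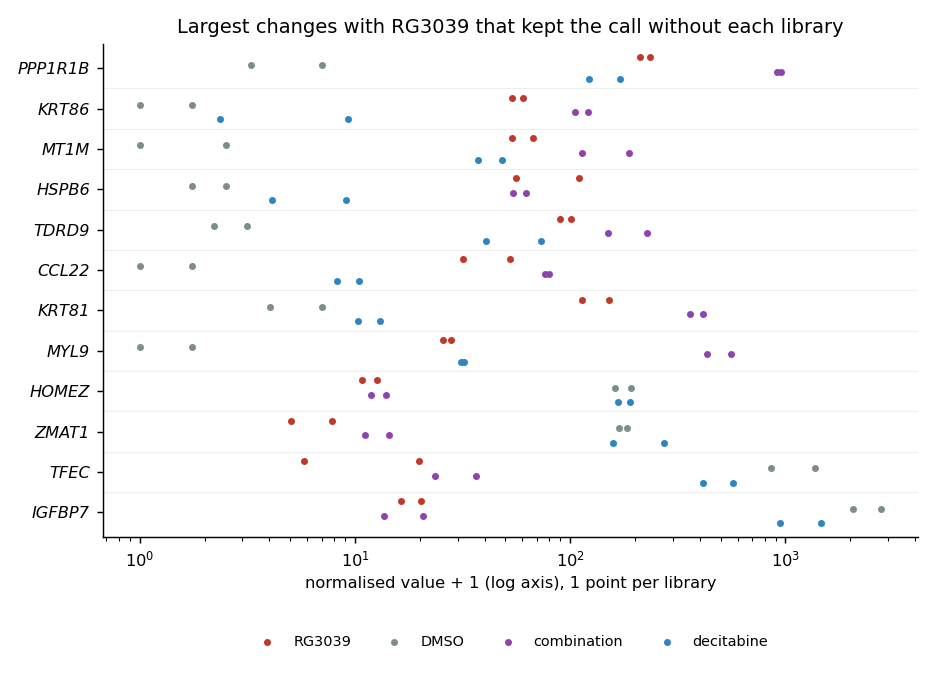
Normalised value + 1 per library (horizontal log axis) for the genes among the 15 largest changes each way that stayed called whichever library was left out and were above 0 in at least 1 library of both groups. In every gene the RG3039 points lie apart from the DMSO points, and the combination points lie on the same side of the decitabine points.

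Metallothioneins are small cysteine-rich proteins that bind zinc, copper and cadmium, and their genes sit together on chromosome 16. MTF1 is the zinc-sensing transcription factor that switches them on through metal response elements. Of 10 tested members of the metallothionein list, 7 were called higher with RG3039 and 0 lower, and all 7 kept the call without each library. The median change of the list was 1.60, against -0.0025 over all tested genes. Tags of MT1 genes are near-identical, so reads can be shared between them and the level of each is uncertain.

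MT1H (ENSG00000205358.4, chromosome 16, 56669814 to 56671129) had 245 and 253 with RG3039, against 12.9 and 12.1 with DMSO (4.21 ± 0.25, adjusted p = 0.000109). MT2A (ENSG00000125148.7, chromosome 16, 56608199 to 56609497), had 16438 and 17913 with RG3039, against 4402 and 5898 with DMSO (1.75 ± 0.17, adjusted p = 0.000743). MT1G had 3696 and 3910.2 with RG3039, against 659 and 907 with DMSO (2.30 ± 0.18, adjusted p = 0.000372). In these genes neither group reached the range of the other.

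MT1X had 2326 and 2534 with RG3039, against 880.4 and 889 with DMSO (1.45 ± 0.17, adjusted p = 0.00143) and MT1F 1053 and 1118 with RG3039, against 307 and 286 with DMSO (1.87 ± 0.19, adjusted p = 0.000757). MT1M, at 0 to 1 read in DMSO, had 52.4 and 66.1 with RG3039, against 0 and 1.51 with DMSO (adjusted p = 0.00136). MTF1 itself had 2757 and 2939.8 with RG3039, against 1286 and 1059.7 with DMSO (1.29 ± 0.15, adjusted p = 0.00144). The regulator and 6 of 7 tested metallothionein genes were thus called in the same direction. MT1E did not pass (0.60 ± 0.29, adjusted p = 0.258), and its groups, 2522 and 2002 with RG3039, against 1127 and 1952 with DMSO, were close. The zinc exporter gene SLC30A1, another known target of MTF1, had 367 and 313 with RG3039, against 434 and 400.0 with DMSO (-0.30 ± 0.31, adjusted p = 0.620), and the zinc importer gene SLC39A10 had 1064 and 1175 with RG3039, against 1049.8 and 961 with DMSO (0.16 ± 0.16, adjusted p = 0.614).

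Promoters of 3 of the 7 tested metallothionein genes were matched by symbol in RefSeq (GRCh38.p14), from 250 bases before to 50 bases after the start. They are shown because 6 of these 7 genes rose together. Capitals mark the core letters of the metal response element, TGCACNC or TGCGCNC, on either strand. All 3 windows are on the plus strand of chromosome 16, 5′ to 3′. MT2A lies at chr16:56608334-56608633, MT1H at chr16:56669564-56669863 and MT1X at chr16:56682220-56682519.
MT2A: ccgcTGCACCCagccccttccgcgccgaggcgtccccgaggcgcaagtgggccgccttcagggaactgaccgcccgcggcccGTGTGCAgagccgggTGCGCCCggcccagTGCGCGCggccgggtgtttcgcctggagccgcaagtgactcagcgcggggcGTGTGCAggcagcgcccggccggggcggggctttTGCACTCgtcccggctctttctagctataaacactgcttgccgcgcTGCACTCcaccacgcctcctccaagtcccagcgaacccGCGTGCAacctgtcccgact
MT1H: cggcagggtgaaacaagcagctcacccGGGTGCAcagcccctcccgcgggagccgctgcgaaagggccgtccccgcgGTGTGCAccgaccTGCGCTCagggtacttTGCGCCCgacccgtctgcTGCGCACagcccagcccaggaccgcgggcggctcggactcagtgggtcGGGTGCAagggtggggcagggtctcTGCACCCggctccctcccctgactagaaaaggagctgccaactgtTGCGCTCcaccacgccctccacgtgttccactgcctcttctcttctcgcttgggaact
MT1X: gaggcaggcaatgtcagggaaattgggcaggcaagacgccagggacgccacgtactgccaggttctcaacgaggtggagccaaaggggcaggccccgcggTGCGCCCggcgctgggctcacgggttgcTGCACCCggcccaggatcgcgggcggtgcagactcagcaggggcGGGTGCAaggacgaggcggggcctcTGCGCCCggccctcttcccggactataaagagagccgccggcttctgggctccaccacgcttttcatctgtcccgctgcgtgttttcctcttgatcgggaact
The MT2A and MT1H windows hold 8 matches each and the MT1X window holds 4. Among all 35116 promoters of that table, 29.6% hold at least 1 match, 0.601% hold at least 4 and 0.0199% hold at least 8. Among the 11081 promoters of tested genes, 0.794% hold at least 4 and 0.0361% hold at least 8. At least 1 match stood in 35.3% of 507 promoters of genes called higher and in 39.4% of 500 promoters of genes called lower, against 37.8% over promoters of tested genes. A match is a description of letters only.

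**Figure D3:**
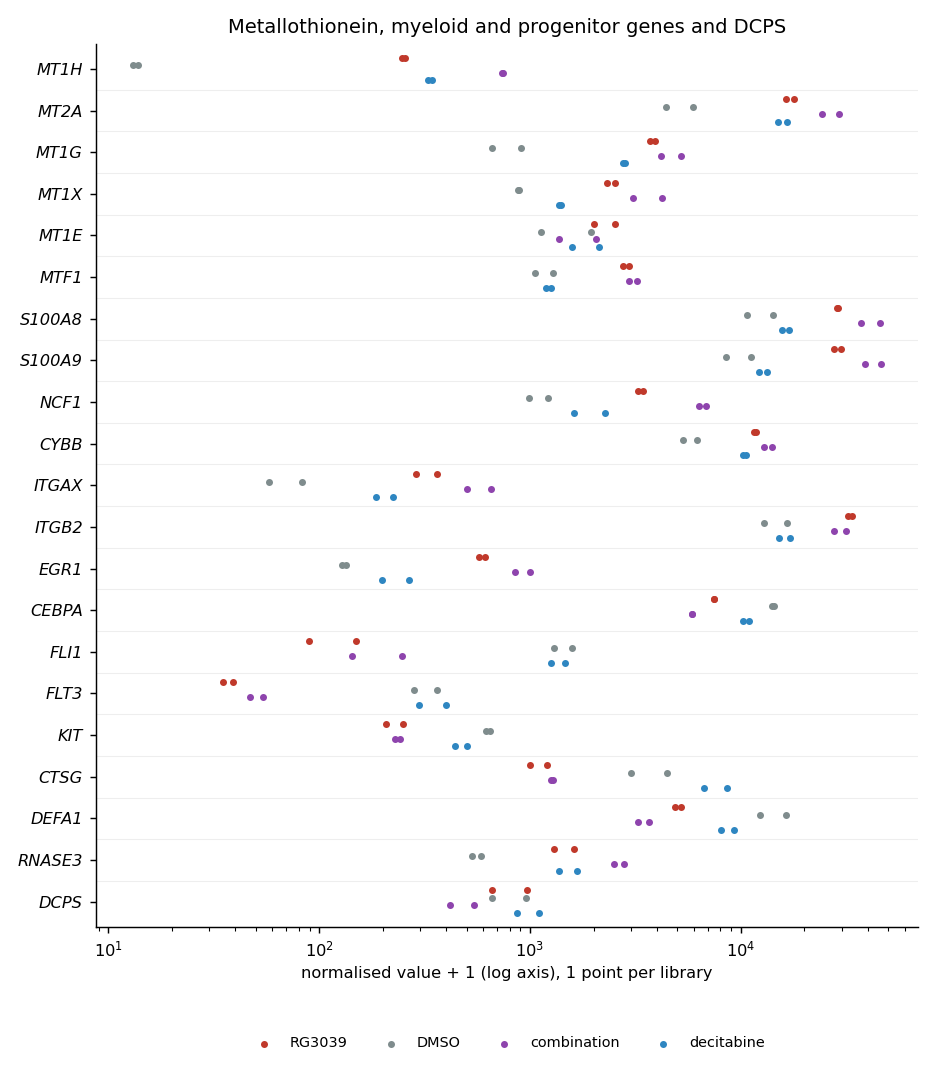
Normalised value + 1 per library (horizontal log axis) for metallothionein genes, myeloid genes, progenitor genes and DCPS. RG3039 points lie right of the DMSO points from MT1H to MT1X and from MTF1 to EGR1 and in RNASE3, lie left of them from CEBPA to DEFA1, and overlap them in DCPS.

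In 3 lists of granule, oxidase and S100 genes of phagocytes, all called members were higher with RG3039. Of 22 genes listed for secondary and tertiary granules, which serve neutrophils at a late step of maturation, 8 rose and 0 fell (median 0.16), and 7 of the 8 kept the call without each library. Among the 8 were PADI4 and SLC2A3, a glucose transporter gene that the glycolysis and hypoxia list also holds. A negative change that did not pass was seen in 9 of the 22, and 3 of these had an unadjusted limma p under 0.05. Changes in this list ran from -5.17 to 3.59, so the largest was a fall that was not called. Of 23 phagocyte oxidase and chemoattractant receptor genes, 9 rose and 0 fell (median 0.50), and 5 kept the call. Of 11 S100 calcium-binding genes, 4 rose and 0 fell (median 0.63), and 3 kept the call. In bulk samples a change in the share of cells that make a transcript and a change in the amount per cell cannot be told apart.

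MMP9, the gelatinase of neutrophil tertiary granules, had 117 and 121 with RG3039, against 10.6 and 7.55 with DMSO (3.59 ± 0.33, adjusted p = 0.000623). CHI3L1, a chitinase-like protein of specific granules, had 10563 and 10852 with RG3039, against 3207 and 4303 with DMSO (1.53 ± 0.16, adjusted p = 0.000883). PADI4, which converts arginine to citrulline on histones in neutrophils, had 1039 and 1085 with RG3039, against 336 and 387 with DMSO (1.55 ± 0.16, adjusted p = 0.000883). The groups were separate in all 3.

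The oxidase that makes superoxide in phagocytes is built from a membrane part, CYBB with its partner, and cytosolic parts that include NCF1. CYBB had 11760.2 and 11591 with RG3039, against 6174 and 5306 with DMSO (1.03 ± 0.13, adjusted p = 0.00185). NCF1, which has near-identical pseudogenes and so an uncertain level, had 3252 and 3426 with RG3039, against 1219 and 983 with DMSO (1.61 ± 0.19, adjusted p = 0.00130). Both of these genes rose. Among receptors, FPR1, which senses bacterial formyl peptides, had 444 and 313 with RG3039, against 70.1 and 100.1 with DMSO (2.14 ± 0.31, adjusted p = 0.00340). GPR84, a receptor of medium-chain fatty acids, had 366 and 276 with RG3039, against 46.3 and 30.2 with DMSO (3.05 ± 0.35, adjusted p = 0.00120).

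S100A8 and S100A9 encode the subunits of calprotectin, a metal-binding protein of neutrophils and monocytes. S100A8 had 28822 and 28709 with RG3039, against 10687 and 14266 with DMSO (1.22 ± 0.16, adjusted p = 0.00250) and S100A9 27782 and 29737 with RG3039, against 8456 and 11215 with DMSO (1.56 ± 0.16, adjusted p = 0.000857). S100A11 had 8858 and 10211 with RG3039, against 2565 and 3767 with DMSO (1.61 ± 0.22, adjusted p = 0.00260). The replicates of S100A8 with RG3039 were closer to each other than those with DMSO.

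Of 52 monocyte and macrophage maturation genes, 16 rose and 4 fell (median 0.56), and 7 and 3 of these kept the call without each library. ITGB2 and ITGAX, the β and an α chain of leukocyte integrins, had 33701 and 32214 with RG3039, against 16585 and 12822 with DMSO (1.18 ± 0.15, adjusted p = 0.00217) and 362 and 287 with RG3039, against 81.9 and 56.7 with DMSO (2.23 ± 0.28, adjusted p = 0.00198). EGR1, an immediate early transcription factor gene of monocyte differentiation, had 610.0 and 569 with RG3039, against 128 and 133 with DMSO (2.17 ± 0.23, adjusted p = 0.000857). All 3 were higher in each RG3039 library than in any DMSO library. The 4 members that fell were TFEC, MS4A6A, FCGR1A and CCR2, of which MS4A6A, FCGR1A and CCR2 were chosen after their values were seen. FCGR1A, the high-affinity IgG receptor gene of monocytes, had 474 and 405 with RG3039, against 969.7 and 1301 with DMSO (-1.36 ± 0.19, adjusted p = 0.00335). MS4A6A, a membrane protein gene of monocytes and macrophages, had 124 and 51.0 with RG3039, against 715 and 739 with DMSO (-3.17 ± 0.45, adjusted p = 0.00324). The list thus moved both ways.

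Azurophil granule genes, which promyelocytes make early, also moved both ways. Of 29 tested, 5 rose and 7 fell, and 1 and 3 of these kept the call without each library. Their median was 0.10, and it was -0.14 under quantile normalisation. CTSG, cathepsin G, had 999 and 1203 with RG3039, against 4468 and 3016 with DMSO (-1.74 ± 0.21, adjusted p = 0.00149). The defensin gene DEFA1, near-identical to DEFA3, had 5215 and 4886 with RG3039, against 12382 and 16286 with DMSO (-1.49 ± 0.16, adjusted p = 0.000988). RNASE3, an eosinophil ribonuclease gene, had 1305 and 1623 with RG3039, against 532 and 583 with DMSO (1.38 ± 0.18, adjusted p = 0.00200). MPO was lower (-0.77 ± 0.18, adjusted p = 0.0280), and that call was lost in 5 of the 8 fits that left out a library, at most at adjusted p = 0.177 without RG3039 replicate 1. Of the 14 defining markers of HL-60, 1 rose and 6 fell (median -0.67), and 3 of the 6 kept the call without each library. Their summed value was 125091 and 140510.0 with RG3039, against 189200.0 and 224740.0 with DMSO. Most of this sum was MPO in each library.

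Among 43 myeloid transcription factor genes, 8 rose and 2 fell (median 0.21). ID2, an inhibitor of helix-loop-helix factors, had 5303 and 5468 with RG3039, against 1871 and 1802 with DMSO (1.55 ± 0.13, adjusted p = 0.000408), and KLF5, a Krüppel-like factor gene, 419 and 505 with RG3039, against 120.0 and 137 with DMSO (1.84 ± 0.22, adjusted p = 0.00149). The 2 that fell were FLI1 and CEBPA. FLI1, an ETS factor of blood stem cells and megakaryocytes (ENSG00000151702.17, chromosome 11, 128686535 to 128813267), had 88.6 and 148 with RG3039, against 1302 and 1585 with DMSO (-3.64 ± 0.32, adjusted p = 0.000537). CEBPA, a factor of the step from progenitor to granulocyte, had 7482 and 7420.3 with RG3039, against 14374 and 14108 with DMSO (-0.93 ± 0.12, adjusted p = 0.00190), with replicates that nearly coincided. Both kept the call without each library, as did 3 of the 8 that rose.

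Of 30 stem and progenitor genes, 3 rose and 4 fell (median -0.16). The receptor tyrosine kinase gene FLT3 (ENSG00000122025.15, chromosome 13, 28003274 to 28100592) had 37.9 and 34.0 with RG3039, against 281 and 362 with DMSO (-3.12 ± 0.31, adjusted p = 0.000757). KIT, the receptor of stem cell factor, had 207 and 248 with RG3039, against 647 and 619 with DMSO (-1.48 ± 0.21, adjusted p = 0.00309). PBX3, a homeobox gene and partner of HOX proteins, was among those that rose, with 734 and 737 with RG3039, against 276 and 295 with DMSO (1.36 ± 0.18, adjusted p = 0.00209). MYC, which is amplified in HL-60 and was chosen here after its values were seen, had 1721 and 1062 with RG3039, against 2716 and 2954 with DMSO and did not pass (-1.07 ± 0.29, adjusted p = 0.0565).

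**Figure D4:**
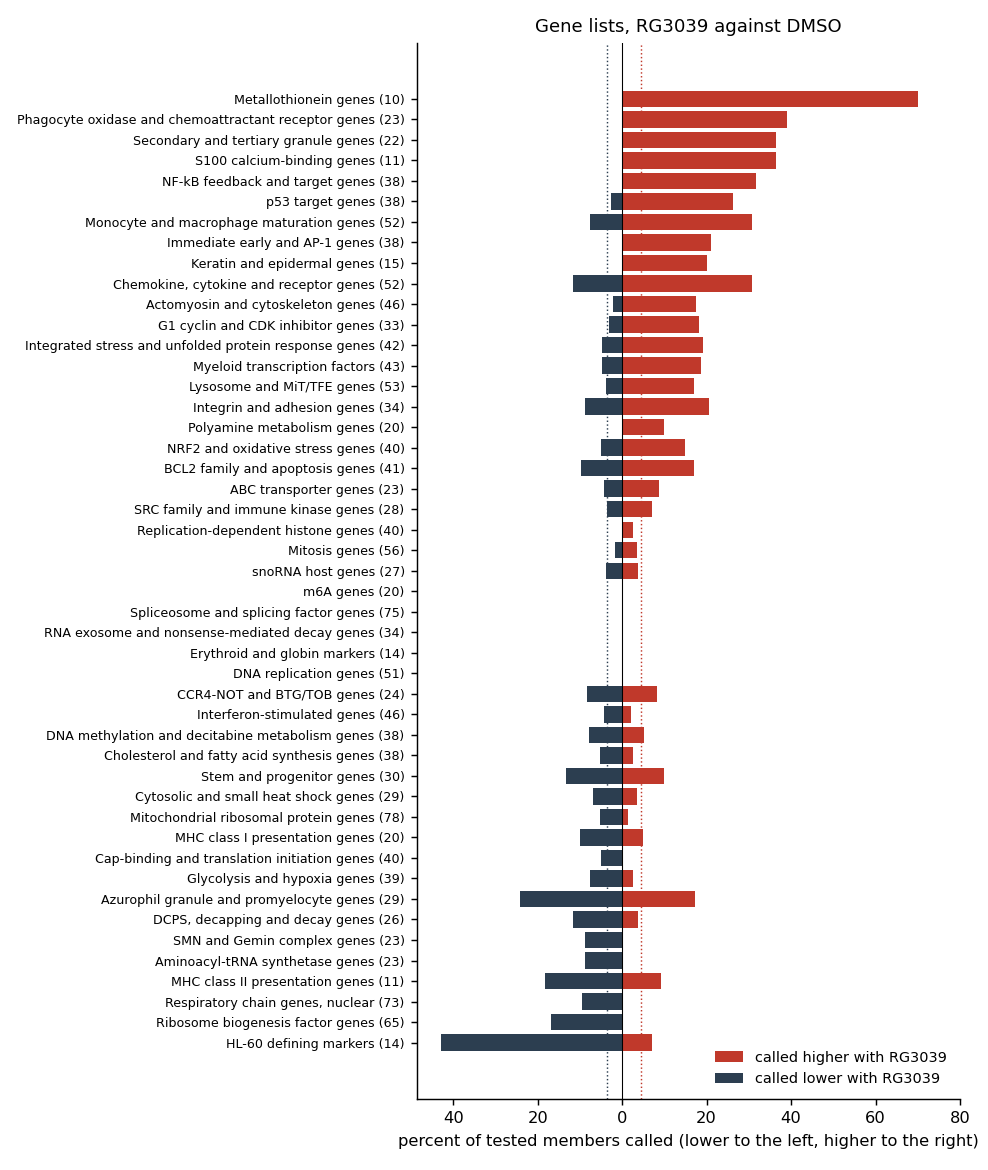
Percent of tested members called higher (red, to the right) and lower (dark blue, to the left) with RG3039 for each gene list with at least 10 tested members, whose number stands in parentheses. Dotted lines mark the shares over all tested genes, 4.53% higher and 3.59% lower, and the metallothionein list reaches farthest to the right with 7 of 10 members.

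Calls among signalling genes that cells induce quickly were in the higher direction as well. Of 38 immediate early and AP-1 genes, 8 rose and 0 fell (median 0.46), and 3 of them kept the call without each library. Of 38 NF-kB feedback and target genes, 12 rose and 0 fell (median 0.50), and 4 kept the call. These lists share members. IER3, an early response gene that both lists hold (ENSG00000137331.12, chromosome 6, 30743199 to 30744554), had 4606 and 4824 with RG3039, against 650.0 and 325 with DMSO (3.36 ± 0.27, adjusted p = 0.000372). NFKB2, which encodes the precursor of the p52 subunit of NF-kB, had 208 and 204 with RG3039, against 54.0 and 56.8 with DMSO (1.88 ± 0.26, adjusted p = 0.00265). BTG1, an antiproliferation gene, had 9409.8 and 10256 with RG3039, against 5030.0 and 4739.8 with DMSO (1.01 ± 0.14, adjusted p = 0.00320). The groups did not overlap in any of the 3.

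Of 52 chemokine, cytokine and receptor genes, 16 rose and 6 fell (median 0.54), and 5 and 1 of these kept the call without each library. CXCL8, interleukin 8 and a neutrophil attractant, had 1114 and 799 with RG3039, against 231 and 256 with DMSO (1.95 ± 0.23, adjusted p = 0.00136). CCL5, an attractant of T cells and monocytes, had 2041 and 2177 with RG3039, against 699 and 800.0 with DMSO (1.49 ± 0.16, adjusted p = 0.000883). IL1RN, the interleukin 1 receptor antagonist, had 1005 and 1031 with RG3039, against 311 and 403 with DMSO (1.52 ± 0.19, adjusted p = 0.00178). IL17RA, a receptor chain of interleukin 17, had 13235 and 14902 with RG3039, against 5063 and 5935 with DMSO (1.36 ± 0.14, adjusted p = 0.000836). All 4 were higher in each RG3039 library than in either DMSO library. TNFSF13B, the B cell survival factor BAFF, fell, with 1609.5 and 1765 with RG3039, against 3584 and 3988 with DMSO (-1.16 ± 0.16, adjusted p = 0.00299).

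Of 46 interferon-stimulated genes tested, 1 rose and 2 fell (6.52% called, against 8.12% of all tested genes). Their median was -0.073, and it was 0.012 when libraries were set to the same total. The gene that rose was GBP2, a guanylate-binding protein, with 473 and 618 with RG3039, against 49.0 and 52.3 with DMSO (3.39 ± 0.26, adjusted p = 0.000372). PARP14, a mono-ADP-ribosyltransferase gene, had 116 and 165 with RG3039, against 525 and 474 with DMSO (-1.84 ± 0.28, adjusted p = 0.00419), and the helicase gene DDX60 had 3.43 and 0 with RG3039, against 81.4 and 110.1 with DMSO (-5.51 ± 0.86, adjusted p = 0.00494). The DDX60 call ended at adjusted p = 0.0508 without DMSO replicate 2. Of 11 MHC class II presentation genes, 1 rose and 2 fell (median -0.41). HLA-DRA, the α chain of HLA-DR, had 30.9 and 31.8 with RG3039, against 202 and 312 with DMSO (-2.96 ± 0.49, adjusted p = 0.00657), which ended at adjusted p = 0.0633 without DMSO replicate 2. IFI30, a lysosomal thiol reductase of antigen processing, rose, with 3836 and 3600.5 with RG3039, against 1364 and 1436 with DMSO (1.41 ± 0.15, adjusted p = 0.000903). Of 20 MHC class I presentation genes, 1 rose and 2 fell (median 0.010), none of which kept the call without each library.

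Of 38 genes listed as p53 targets, 10 rose and 1 fell (median 0.45), and 4 of the 10 kept the call without each library. HL-60 is p53-null, so the name of the list does not stand for p53 activity, which was not tested. TP53I11 had 1078 and 1119.9 with RG3039, against 260.4 and 288 with DMSO (2.00 ± 0.18, adjusted p = 0.000551). SAT1, which acetylates polyamines and sends them to breakdown and export, had 4769 and 4601 with RG3039, against 1504 and 2045 with DMSO (1.42 ± 0.17, adjusted p = 0.00136). BBC3, the pro-apoptotic BH3 protein PUMA, had 1568 and 1499 with RG3039, against 612 and 561 with DMSO (1.39 ± 0.17, adjusted p = 0.00140). CDKN1A, the p21 inhibitor of cyclin-dependent kinases, had 144 and 169 with RG3039, against 54.8 and 47.9 with DMSO (1.59 ± 0.36, adjusted p = 0.0281), but its call was lost in 6 of the 8 fits that left out a library, at most at adjusted p = 0.150 without RG3039 replicate 2. Of 41 BCL2 family and apoptosis genes, 7 rose and 4 fell (median 0.034). BCL2A1, an antiapoptotic member, had 1049.8 and 904 with RG3039, against 315 and 382 with DMSO (1.49 ± 0.19, adjusted p = 0.00187). BCL2 itself, also antiapoptotic, had 1917 and 1961 with RG3039, against 3825 and 3432 with DMSO (-0.90 ± 0.14, adjusted p = 0.00465). Antiapoptotic members thus changed in opposite directions.

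Of 42 integrated stress and unfolded protein response genes, 8 rose and 2 fell (median 0.19), and 4 and 1 kept the call without each library. Targets of ATF4 were among those that rose. ASNS, asparagine synthetase, had 2499.8 and 2769.8 with RG3039, against 1395 and 1101 with DMSO (1.09 ± 0.16, adjusted p = 0.00413). TRIB3, a pseudokinase gene, had 1234 and 1221 with RG3039, against 602 and 515 with DMSO (1.14 ± 0.17, adjusted p = 0.00364). SLC7A11, the cystine importer, had 1882 and 1601 with RG3039, against 671 and 651 with DMSO (1.39 ± 0.18, adjusted p = 0.00194). XBP1, a factor of the unfolded protein response in the endoplasmic reticulum, fell, with 1852 and 1491 with RG3039, against 3525 and 4248 with DMSO (-1.22 ± 0.17, adjusted p = 0.00311). Of 40 NRF2 and oxidative stress genes, 6 rose and 2 fell (median 0.11). TKT, transketolase of the pentose phosphate pathway, had 27123 and 30049 with RG3039, against 14238 and 13469 with DMSO (1.04 ± 0.14, adjusted p = 0.00213), and MGST1, a microsomal glutathione transferase, had 2349 and 2149 with RG3039, against 4177 and 5798 with DMSO (-1.13 ± 0.17, adjusted p = 0.00471). Of 29 heat shock genes, 1 rose (HSPB6) and 2 fell (median -0.20). Of 53 lysosome and MiT/TFE genes, 9 rose and 2 fell (median 0.11). TFE3, a lysosomal transcription factor of the same family as TFEC, had 688 and 861 with RG3039, against 216 and 300.4 with DMSO (1.59 ± 0.24, adjusted p = 0.00388), so these relatives moved in opposite directions. IDS, iduronate sulfatase, had 675 and 725 with RG3039, against 209 and 239.7 with DMSO (1.64 ± 0.24, adjusted p = 0.00398).

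DCPS encodes the enzyme that RG3039 inhibits (ENSG00000110063.10, chromosome 11, 126303752 to 126345754). Its normalised value was 966 and 659.7 with RG3039, against 960.2 and 657 with DMSO, so both groups spanned almost the same range. The change was 0.01 ± 0.27 (adjusted p = 0.992), with a 95% interval of -0.59 to 0.61. Replicate 1 was above replicate 2 in both groups, and the fit, which did not pair libraries, counts that gap as spread. Of 26 genes of the DCPS, decapping and decay list, 1 rose and 3 fell (median -0.030, 0.0025 under quantile normalisation and 0.056 at the same total), and none kept the call without each library. The gene that rose was XRN1, the 5′-to-3′ exonuclease (0.69 ± 0.18, adjusted p = 0.0447), lost at most at adjusted p = 0.179 without RG3039 replicate 2. Those that fell were LSM4 of the LSM ring (-0.83 ± 0.15, adjusted p = 0.00939), HINT1, a nucleotide hydrolase of the same superfamily as DcpS (-0.89 ± 0.15, adjusted p = 0.00839), and the decapping cofactor DCP1B (-1.31 ± 0.32, adjusted p = 0.0370). They were lost at most at adjusted p = 0.0764 without RG3039 replicate 2, adjusted p = 0.0764 without RG3039 replicate 2 and adjusted p = 0.172 without DMSO replicate 2. Of 24 genes of the CCR4-NOT deadenylase and its BTG/TOB partners, 2 rose and 2 fell. CNOT6, a catalytic deadenylase of that complex (ENSG00000113300.13, chromosome 5, 180494412 to 180578405), had 4045 and 3577 with RG3039, against 1175 and 1365 with DMSO (1.59 ± 0.16, adjusted p = 0.000750), with every RG3039 library more than 2-fold above every DMSO library.

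None of 34 exosome and nonsense-mediated decay genes, 75 spliceosome genes and 20 m6A genes was called by limma. Their medians were -0.13, -0.17 and -0.23. At an unadjusted p under 0.05, 3 higher and 5 lower of the first list, 3 higher and 12 lower of the second and 1 higher and 5 lower of the third would pass. Of 40 cap-binding and translation initiation genes, 0 rose and 2 fell (median -0.073, 0.013 at the same total). Of 23 genes of the SMN and Gemin complex, which loads Sm proteins onto small nuclear RNAs, 0 rose and 2 fell (8.70% called, median -0.37). A negative change, called or not, was seen in 22 of the 23, against 8794 of all 17534 tested genes. CLNS1A, the chaperone that hands Sm proteins to that complex (ENSG00000074201.9, chromosome 11, 77514936 to 77637805), had 2908 and 2345 with RG3039, against 7062 and 6446 with DMSO (-1.37 ± 0.17, adjusted p = 0.00172). GEMIN5, which binds small nuclear RNA, had 1169 and 1089 with RG3039, against 1638 and 1969.9 with DMSO (-0.67 ± 0.17, adjusted p = 0.0424), a call lost in 7 of the 8 fits that left out a library, at most at adjusted p = 0.195 without RG3039 replicate 2.

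Calls among ribosome biogenesis factor and cytosolic ribosomal protein genes were mostly in the lower direction. Of these 2 sets 16.9% and 13.3% were called, against 8.12% of all tested genes. Of 65 ribosome biogenesis factor genes, 0 rose and 11 fell (median -0.46), and 61 had a negative change. None of the 11 kept the call without each library. RRP1B, a nucleolar factor, had 2505 and 2358 with RG3039, against 3948 and 4780.2 with DMSO (-0.84 ± 0.15, adjusted p = 0.00875), lost at most at adjusted p = 0.0709 without RG3039 replicate 2. Of 83 tested cytosolic ribosomal protein genes, 1 rose and 10 fell (median -0.28), and 71 had a negative change. None of these kept the call without each library, and the gene that rose was RPS27L, a relative of RPS27 listed as a p53 target and named after its values were seen. RPS2, a protein of the small subunit, had 90023 and 86629 with RG3039, against 141933 and 169298 with DMSO (-0.81 ± 0.14, adjusted p = 0.00785), lost at most at adjusted p = 0.0767 without RG3039 replicate 2. Of 78 mitochondrial ribosomal protein genes 1 rose and 4 fell (median -0.16), and of 23 aminoacyl-tRNA synthetase genes 0 rose and 2 fell (median -0.25). That is 6.41% and 8.70% called, near the 8.12% of all tested genes. The synthetase list does not hold every such gene. VARS2, the mitochondrial valyl-tRNA synthetase gene called higher above, is not among its 23, whose largest positive change was 0.946. LARS1, leucyl-tRNA synthetase, had 6148 and 5509 with RG3039, against 11566 and 11419 with DMSO (-0.98 ± 0.13, adjusted p = 0.00265). Of 27 snoRNA host genes, 1 rose and 1 fell (7.41% called, median -0.26). SNHG9 rose, with 1260.4 and 1298 with RG3039, against 495 and 426 with DMSO (1.48 ± 0.19, adjusted p = 0.00200).

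Of 73 nuclear respiratory chain genes, 0 rose and 7 fell (median -0.20), which is 9.59% called, against 8.12% of all tested genes. NDUFB5, a subunit of complex I, had 863 and 703 with RG3039, against 1911 and 1877 with DMSO (-1.28 ± 0.17, adjusted p = 0.00254) and was the single one of the 7 to keep the call without each library. Mitochondrially encoded messenger RNAs were not among the called genes. Of 35 mitochondrially encoded genes tested, 8 were called higher and 0 lower, and all 8 were transfer RNA genes, of 20 tested. These tRNA genes were chosen after their values were seen, and both the tRNA and the unprocessed transcript that holds it can give such tags. MT-TL1, a leucine tRNA gene, had 71595 and 79946 with RG3039, against 28301 and 32697 with DMSO (1.31 ± 0.18, adjusted p = 0.00268). MT-TN, an asparagine tRNA gene, had 1547 and 1982 with RG3039, against 579.6 and 756 with DMSO (1.40 ± 0.20, adjusted p = 0.00343). MT-TL1 and MT-TN kept the call without each library, and the other 6 did not.

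Cell cycle genes were read in 3 lists. Of 51 DNA replication genes 0 were called by limma, and at an unadjusted p under 0.05 5 higher and 5 lower would pass (median -0.065, 0.020 at the same total). Of 56 mitosis genes 2 rose and 1 fell (median 0.11), with none kept without each library. Of 33 G1 cyclin and CDK inhibitor genes, 6 rose and 1 fell (median 0.15), which is 21.2% called, against 8.12% of all tested genes. CCND3, the cyclin D3 of G1, had 4349 and 5128 with RG3039, against 1701 and 1607 with DMSO (1.51 ± 0.18, adjusted p = 0.00126) and was the single one of these to keep the call. Of 40 replication-dependent histone genes, read here in polyadenylated RNA only, 1 rose and 0 fell (median 0.30). It was H2BC21, an H2B gene that also gives a polyadenylated transcript, with 508 and 485 with RG3039, against 98.4 and 70.9 with DMSO (2.56 ± 0.28, adjusted p = 0.00109).

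Among metabolic genes, CDA, the cytidine deaminase that inactivates cytidine analogues, had 2082 and 2353 with RG3039, against 379 and 471 with DMSO (2.39 ± 0.19, adjusted p = 0.000372). IDH2, the mitochondrial NADP-dependent isocitrate dehydrogenase, had 1494 and 1447 with RG3039, against 3839 and 3942 with DMSO (-1.40 ± 0.15, adjusted p = 0.000883). Both belong to a list of 38 DNA methylation and decitabine metabolism genes, of which 2 rose and 3 fell (median -0.14). DNMT1, the maintenance methyltransferase, had 9522 and 6551 with RG3039, against 13815 and 11548 with DMSO and did not pass (-0.68 ± 0.22, adjusted p = 0.0988). Of 39 glycolysis and hypoxia genes, 1 rose and 3 fell (median -0.13). The riser was the glucose transporter SLC2A3, with 2195 and 1885 with RG3039, against 721 and 551 with DMSO (1.69 ± 0.18, adjusted p = 0.000985). Of 38 cholesterol and fatty acid synthesis genes 1 rose and 2 fell (median -0.14), of 23 ABC transporter genes 2 rose and 1 fell (median -0.16), and of 20 polyamine genes 2 rose and 0 fell (median 0.062). SAT1 was the single gene of these 3 lists to keep the call without each library.

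Of 34 integrin and adhesion genes, 7 rose and 3 fell (median 0.21). PECAM1, an adhesion receptor of leukocytes and endothelium, had 1633 and 1875 with RG3039, against 608 and 582 with DMSO (1.55 ± 0.20, adjusted p = 0.00200). CD82, a tetraspanin, had 3241 and 3515 with RG3039, against 1539 and 1246 with DMSO (1.29 ± 0.17, adjusted p = 0.00200). Of 46 actomyosin and cytoskeleton genes, 8 rose and 1 fell (median 0.38). LMNA, the gene of nuclear lamins A and C, had 2562 and 2469.6 with RG3039, against 1068 and 1185 with DMSO (1.16 ± 0.15, adjusted p = 0.00200). Of 28 SRC family and immune kinase genes, 2 rose and 1 fell (median 0.15). The hair keratin gene KRT81 had 113 and 150.4 with RG3039, against 6.05 and 3.02 with DMSO (4.62 ± 0.48, adjusted p = 0.000836), and KRT86 had 59.1 and 52.5 with RG3039, against 0.757 and 0 with DMSO (adjusted p = 0.00470). KRT81 and KRT86 lie at 52285913 to 52291534 and 52249300 to 52309163 on chromosome 12, so their annotated spans overlap, and on near-identical sequence their levels are uncertain. They and KRT80 were the 3 of 15 keratin and epidermal genes that rose, and 0 fell (median 0.88). The call of KRT80 was lost at most at adjusted p = 0.0689 without RG3039 replicate 2.

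Markers of other cell types were read as a check. Of 14 erythroid and globin, 3 B cell, 5 stromal and endothelial and 5 epithelial markers that were tested, 0 were called by limma. At an unadjusted p under 0.05 2 higher and 0 lower of the erythroid list would pass, and 0 of the other 3. Their median changes were 0.84, 0.59, -0.58 and 0.88, and 12 of the 14 erythroid and all 5 epithelial markers had a positive change. Of 5 tested megakaryocyte and platelet markers, 3 fell and 0 rose. Their summed value was 1016 and 1126 with RG3039, against 2071 and 1619 with DMSO. GP1BB, which encodes a chain of the platelet receptor of von Willebrand factor, was listed as 0 in either RG3039 library, against 273 and 27.2 in the DMSO libraries. Of 6 tested T and NK cell markers, 2 rose and 0 fell, and their summed value was 629.6 and 963 with RG3039, against 275 and 100.0 with DMSO. Most of the sum with RG3039 was TRAC, so it does not describe the list. TRAC, the constant segment gene of the T cell receptor α chain (ENSG00000277734.8, chromosome 14, 22547506 to 22552154), had 523 and 767 with RG3039, against 45.4 and 28.7 with DMSO (4.10 ± 0.27, adjusted p = 0.000216). GNLY, the granulysin gene, had 18.8 and 20.6 with RG3039, against 4.53 and 0 with DMSO (3.14 ± 0.72, adjusted p = 0.0286), lost in 7 of the 8 fits that left out a library, at most at adjusted p = 0.131 without RG3039 replicate 2. The T cell receptor complex genes CD3D and CD3E stayed near the floor, CD3D with 1.34 and 3.17 under RG3039, against 6.03 and 1.5 under DMSO, and CD3E with 4.03 and 10.3 with RG3039, against 3.03 and 1.51 with DMSO.

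In the second comparison, the combination against decitabine, cells also differed by RG3039, and no library is shared with the comparison against DMSO. Both comparisons use a single variance per gene, estimated over all 8 libraries, so their calls are not independent. By the same rule 1286 genes were called there (7.33% of tested genes), 691 higher (3.94%) and 595 lower (3.39%). Of the 1424 genes called against DMSO, 1381 had the same sign in the second comparison (96.98%), against 69.0% of all tested genes. In both comparisons 724 genes were called with the same sign, which is 50.8% of the calls against DMSO and 56.3% of the calls against decitabine. Of the 340 genes that kept the call without each library, 338 had the same sign and 289 were also called (85%).

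The genes given next, on both sides, were called in both comparisons. IGFBP7 had 19.6 and 12.6 with the combination, against 1457 and 942 with decitabine (-6.13 ± 0.34, adjusted p = 0.000191). FLI1 had 142 and 246 with the combination, against 1462 and 1262 with decitabine (-2.85 ± 0.32, adjusted p = 0.00150). KRT81 had 359 and 412 with the combination, against 12.1 and 9.35 with decitabine (5.05 ± 0.48, adjusted p = 0.000950). With decitabine present the groups did not overlap either. IER3 had 15136 and 13235 with the combination, against 2130.4 and 2289 with decitabine (2.68 ± 0.27, adjusted p = 0.00120). S100A9 had 38981 and 46194 with the combination, against 12215 and 13233 with decitabine (1.74 ± 0.16, adjusted p = 0.000926), and CDA 3155 and 3828 with the combination, against 705 and 844 with decitabine (2.17 ± 0.19, adjusted p = 0.000829). All 3 were higher in each combination library than in either decitabine library. Other genes given above were not called in the second comparison. Among them were ASNS (0.18 ± 0.16, adjusted p = 0.579), SLC7A11 (0.35 ± 0.18, adjusted p = 0.275), CYBB (0.37 ± 0.13, adjusted p = 0.117) and RPS2 (-0.05 ± 0.14, adjusted p = 0.870). Of the 42 integrated stress and unfolded protein response genes, 2 rose and 3 fell there (median -0.045).

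**Figure D5:**
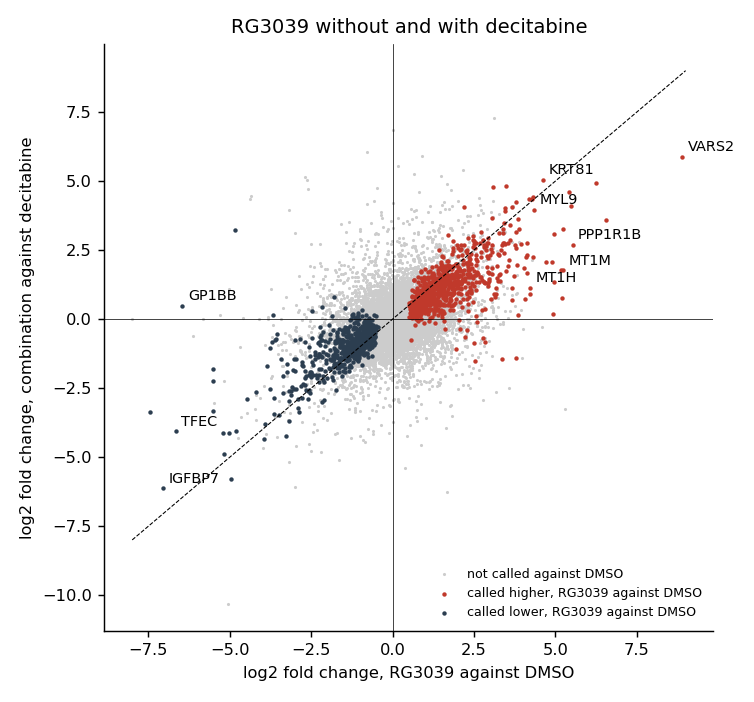
Log2 fold change of the combination against decitabine (vertical axis) plotted against that of RG3039 against DMSO (horizontal axis), 1 point per tested gene, with a dashed line of equal change. Of the 1424 genes called against DMSO (red higher, dark blue lower), 1381 lie in the quadrants of equal sign.

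The test of the difference between both settings, an interaction in the same limma model, called 0 of 17534 genes. At an unadjusted p under 0.05 there were 1014 genes (5.78%), and the smallest adjusted p was 0.124. Among the 1424 genes called against DMSO, 259 had an unadjusted interaction p under 0.05 (18.2%), and the change was the larger one against DMSO in 1104. Those genes were called on the DMSO comparison, which favours a larger change there. The median change of genes called higher was 1.46 against DMSO and 1.08 against decitabine, and of genes called lower -1.18 and -0.84.

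The smallest interaction p belonged to a metallothionein. MT1H had 736 and 746 with the combination, against 328 and 342 with decitabine (1.14 ± 0.25, adjusted p = 0.0241), and its interaction was -3.07 ± 0.35 (adjusted p = 0.124). MT2A had 24247 and 29226 with the combination, against 15059 and 16477 with decitabine (0.76 ± 0.17, adjusted p = 0.0262). Both genes had higher values in each decitabine library than in either DMSO library, a difference not tested here. GP1BB, at 0 with RG3039 alone, had 1013 and 665 with the combination, against 639 and 533 with decitabine, so the gene was present wherever decitabine had been given. DCPS had 543 and 416 with the combination, against 1100.2 and 865 with decitabine (-1.04 ± 0.27, adjusted p = 0.0477), and its interaction p was 0.0211 unadjusted and 0.854 adjusted.

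Calls were also counted by class of transcript. Of 12953 protein-coding genes, 619 rose and 592 fell. Of 2736 long non-coding RNA genes, 129 rose and 25 fell, with a median change of 0.20. That is 4.71% higher, near the 4.53% of all tested genes, and 0.914% lower, against 3.59%. The count of those kept without each library was 179 and 126 for protein-coding genes and 26 and 3 for long non-coding RNA genes. Of the 4384 genes with the lowest mean value, of any class, 1.35% were called higher and 0.479% lower. Class and mean value were not separated here. Of 875 pseudogenes, 17 rose and 11 fell (3.2% called, against 8.12% of all tested genes). Among protein-coding genes with a single annotated exon, 19 of 246 rose (7.72%) and 3 fell (1.22%). Of 5789 such genes with more than 10 exons, 212 rose (3.66%) and 273 fell (4.72%). Neighbouring genes were counted as well. Of 787 genes called higher with a known position, 206 had another such gene with a start within 100 kb (26.2%), against 13% of genes that were not called. For genes called lower the shares were 11.9% and 10%. Overlapping and antisense genes, whose tags cannot be told apart without the strand setting of the counting, are included in these shares.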

How the data were processed

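HL-60 cells in 4 groups of 2 libraries were profiled by QuantSeq 3′ FWD sequencing of polyadenylated RNA (Illumina HiSeq 4000, single-end, 50 bp), per the labels. What was deposited is a normalised signal per gene, made by the authors from reads. The submitters' processing notes name DESeq2, Salmon 1.2.1, STAR, featureCounts, limma and hg38 but give no roles. Whether counting used strand is therefore unknown here.

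Values were taken as log2(value + 1) for genes with a mean of at least 10, and 1 mean per group was fitted over all 8 libraries with limma 3.58.1 in R 4.3.3 (eBayes with trend, 4 residual and 5.51 prior degrees of freedom). Tests were two-sided with Benjamini-Hochberg adjustment over 17534 genes within each contrast. The code was tested on simulated data. Per-library depth is the total divided by the value of 1 read, estimated from low values of genes with 1 annotated transcript, of which 97.5% to 98.1% were whole multiples within 0.02. Genes with several transcripts gave fewer whole multiples, so count tests were left out.

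Members, lists and alternatives were chosen with earlier results of these data known. The 52 gene lists held 1815 symbols, of which 11 had no match, and 1597 genes were tested. They were read as counts and medians, with no test of a list. Named genes are, among called genes with a mean of at least 20 and groups that do not overlap, the 15 largest changes each way and the 6 most abundant each way, the 5 smallest p-values of each list, all tested metallothionein list members, DCPS, CDA and the DNA methyltransferase genes with UHRF1. Y-linked and X-inactivation genes were left out, and 2 genes that the rule named are not reported here. Coordinates come from GENCODE 29 on GRCh38. Libraries were not paired by replicate number. Alternatives were other scalings, pseudocounts and filters, eBayes settings, only the groups compared, a replicate block, a required fold and omission of each library. Tables and plots used Python 3.11.15, pandas 2.3.3, numpy 2.4.6 and matplotlib 3.10.9.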

Additional observations from a re-analysis of the deposited data

How the results depend on the processing

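The number of genes called with RG3039 against DMSO was 1373 to 1528 under TMM, quantile and same-total scaling (991 higher and 537 lower at the same total) and 1408 to 1439 under pseudocounts of 0.5 and 5. It was 718 when the mean-variance trend was dropped and 481 when the fit held only RG3039 and DMSO libraries. The calls with the same sign in the combination against decitabine numbered 684 of those 718 and 472 of those 481. For the combination against decitabine, 432 genes were called without the trend and 818 at a 2-fold change or more. Leaving out a library gave 496 to 1263 genes called against DMSO, of which 472 to 1221 had the same sign in the second comparison, and 305 to 1391 genes called in the combination against decitabine. The interaction gave 0 to 2 genes in those fits and 0 under all other alternatives. Where a group is left with 1 library, that library is assumed to vary like the others. With the replicate block, 1690 genes were called against DMSO, 1678 in the combination against decitabine and 0 in the interaction, and 1623 of the 1690 had the same sign. The block moved no count by over 1.5 times. What the replicate numbers mark is not stated, and libraries with the same number correlated in their deviations from the group means at -0.077 to 0.16. None of the 188 named genes that were called changed sign under any alternative that tested it. The groups of every called gene did not overlap, so only the other scalings could have reversed a sign. Of the 91 named genes that were not called, 9 changed sign. When a library was left out, the change was -0.27 to 0.28 for DCPS, -0.18 to 1.94 for KRT18, -0.34 to 1.51 for CD79A, -0.24 to 0.83 for GP6, -0.78 to 1.24 for PAX5, -0.46 to 0.87 for NCR1, -0.43 to 0.47 for COL6A3 (-0.14 under quantile normalisation), -1.45 to 0.68 for THY1 and -1.17 to 0.32 for CD3D. With 2 libraries a group the median standard error was 0.322 on the log2 scale, which bounds what this depth and size can show.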
